A study of Mus musculus with 12 samples.

Results

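The first step of a differentiation of mouse embryonic stem cells was measured by comparing the 3 arrays labelled day 4 with the 3 labelled day 0. The genes described are those whose probe was detected (detection p-value under 0.05) on all 3 arrays of at least 1 of these days. They number 8339, out of 9657 genes tested and 15967 genes with a probe naming a single gene. Of the 8339, 7512 were detected on all 6 arrays, 472 on every day 4 array but not on every day 0 array, and 355 on every day 0 array but not on every day 4 array.

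All groups come from W9.5, a line of mouse embryonic stem cells, sampled on days 0, 4, 8 and 15 with 3 arrays each. Per the labels the protocol uses activin A, then retinoid acid, then retinoid acid together with fibroblast growth factor, and leads toward pancreatic progenitor cells. This treatment text is the same on all 12 arrays, day 0 included, and the labels do not say on which days an agent was present. Total RNA was hybridised as biotin-labelled cRNA to Illumina arrays. The labels name replicates 1 to 3 of each day without saying that they were separate cultures, so p-values measure only the spread between these arrays, which may be technical. A single cell line limits what the comparison can stand for.

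Mouse embryonic stem cells kept with leukaemia inhibitory factor (LIF) resemble the epiblast before implantation, a state called naive. LIF acts through STAT3, and BMP through the ID proteins, to hold that state. When the cells leave it they first resemble the epiblast after implantation, the primed state, in which Pou5f1 and Sox2 are still expressed while factors such as Klf4 and Esrrb decline and Otx2, Pou3f1 and Fgf5 appear. Activin A signals like nodal and, in culture, is used to drive such cells toward definitive endoderm, from which the pancreas arises.

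The median scanner intensity of the 6 arrays lay between 73.4 and 82. Their detected probes averaged 11602 ± 312 (SD, n = 3) on day 0 and 11797 ± 512 on day 4, a difference of 195.3 probes (exact permutation test, two-sided p = 0.6, where 0.1 is the smallest that 3 arrays against 3 allow). This test cannot show that the arrays are alike. The first day 0 array detected the fewest probes, 11253. At a detection p-value under 0.01 it detected 8866, against 9452 to 10051 on the other arrays. Levels across genes correlated at 0.987 to 0.992 between arrays of the same day and at 0.956 to 0.965 between the days (genes are not independent replicates). The stem cell label was borne out by the levels of Pou5f1, the central pluripotency factor, at 11.16, 11.02 and 10.93 on day 0 and 11.21, 11.09 and 11.19 on day 4 (log2 intensity). Sox2 lay at 10.87, 11.58 and 11.36 on day 0 and 11.34, 11.14 and 11.52 on day 4. The days overlapped for both genes.

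Of the 8339 genes, 2521 (30.2%) passed the test (limma, with p-values adjusted by the Benjamini-Hochberg method across the 9657 genes and a threshold of 0.05), 1352 (16.2%) higher on day 4 and 1169 (14%) lower. Genes that were detected on 1 day only through their higher level had to differ, so the counts over the 7512 genes detected on all 6 arrays serve as the background: 2119 of these passed (28.2%), 1086 higher (14.5%) and 1033 lower (13.8%), with a median difference of -0.06. Over all 9657 genes tested, 27% passed, 14.7% higher and 12.3% lower. The changes of over 2-fold leaned upward, with 463 genes higher (5.55%) and 218 lower (2.61%). Among the genes detected on all 6 arrays these shares were 4.23% and 2.25%, and among all genes tested 4.79% and 2.26%. At 4-fold, 93 genes were higher and 30 lower. The 3 arrays of one day all lay above the 3 of the other for 3498 genes (41.9%), of which 2442 passed the test. With the arrays scaled to a common median in place of quantile normalization, 1064 genes were higher and 1414 lower, and the median difference moved from -0.06 to -0.13. In bulk RNA, fewer cells of a type and less RNA per cell cannot be told apart in any of these differences.

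**Figure D1:**
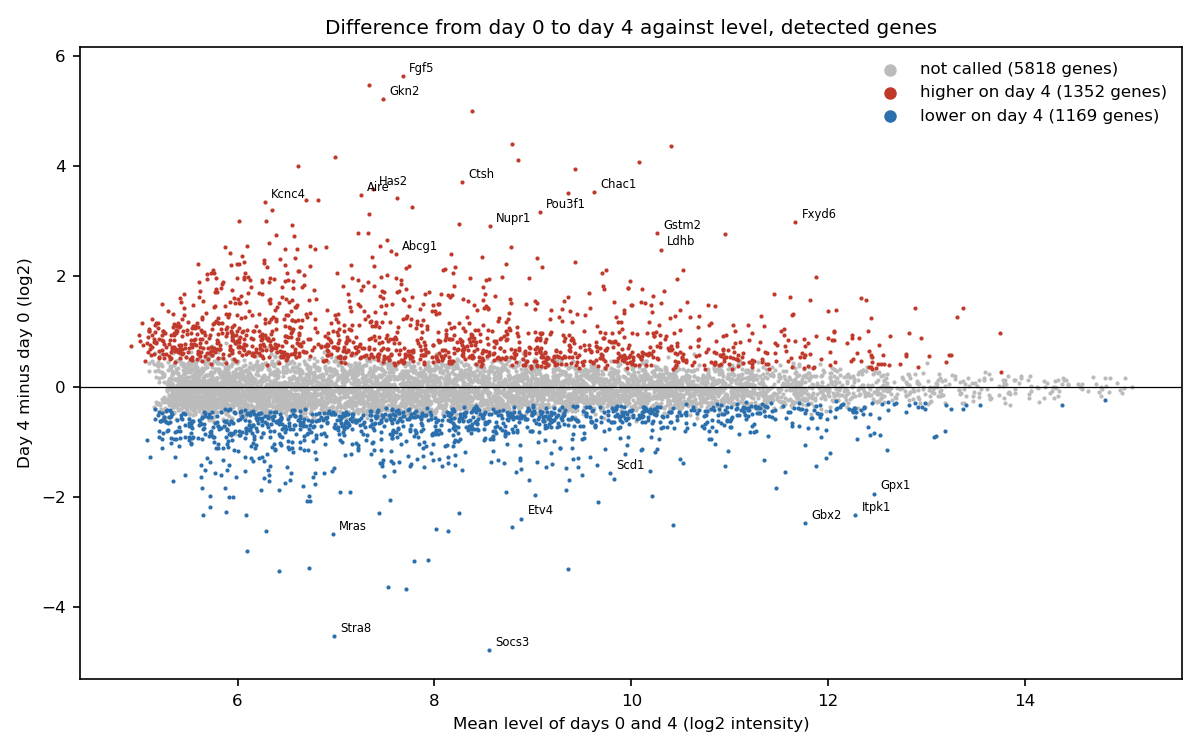
Difference between day 4 and day 0 (log2) against the mean level of both days (log2 intensity) for the 8339 detected genes, 1 point per gene, coloured by call. Differences reached 5.64 (Fgf5) upward and -4.79 (Socs3) downward.

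Detection itself changed for a small part of the genes. For 142 genes the probe was detected on every day 4 array and on no day 0 array, and 130 of these passed the test. In the other direction 61 genes were detected on every day 0 array and on no day 4 array, with 54 passing. For such genes the fold is given as a lower bound, set against the detection floor of the dimmer arrays, and the offset used in the background correction compresses the differences of dim genes.

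The gene lists below were described by the count of their members that passed the test, set against 16.2% higher and 14% lower among all 8339. These lists were chosen with earlier results of these data known, so a high count can follow from the choice. Counts of members detected on all 6 arrays stand against 14.5% and 13.8%. The lists share genes, with 80 genes in more than 1 list, so their counts are not independent. Otx2, for one, is in both the primed epiblast and the definitive endoderm list. By the share of members detected on all 6 arrays, calls upward were many among primed epiblast genes (9 of 12), amino acid shortage genes (22 of 32), definitive endoderm genes (7 of 11) and fibroblast genes (13 of 21). Calls downward were many among cholesterol and fatty acid synthesis genes (18 of 26), naive pluripotency factors (13 of 23) and immediate early genes (6 of 12).

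**Figure D2:**
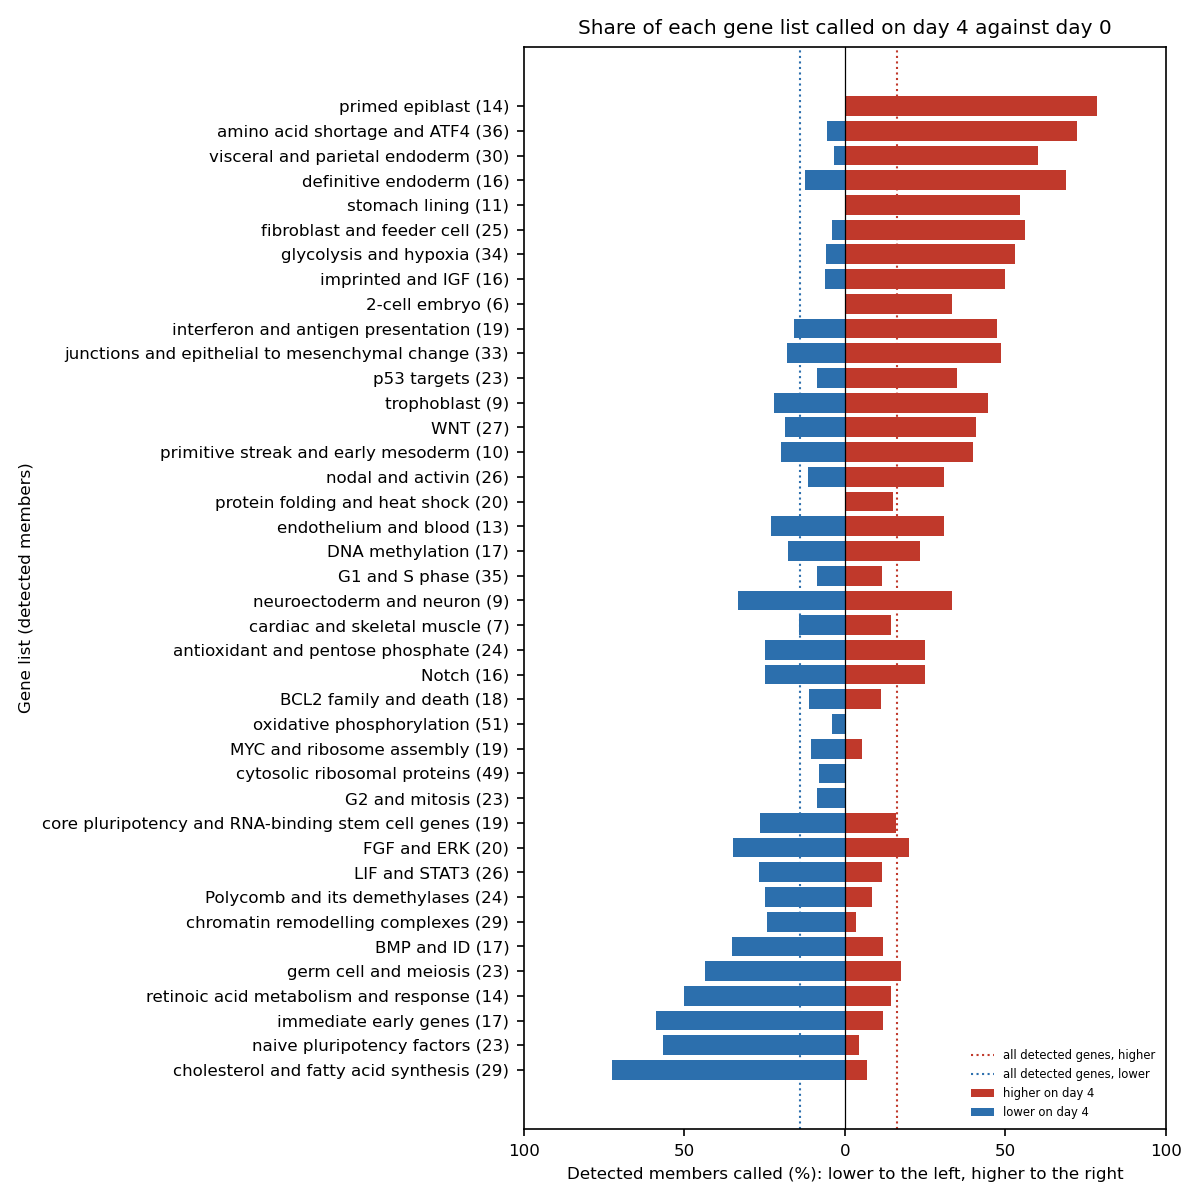
Share of the detected members of 40 gene lists called higher (bars to the right) or lower (bars to the left) on day 4, in percent, with the number of detected members in brackets and dotted lines at the shares over all 8339 genes (16.2% and 14%). Cholesterol and fatty acid synthesis stands at the bottom with 21 of 29 members lower, and primed epiblast at the top with 11 of 14 higher.

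The largest single fall was that of a LIF and STAT3 gene. Socs3, the feedback inhibitor that STAT3 switches on, read 10.82, 11.04 and 10.97 on day 0 and 6.02, 6.13 and 6.32 on day 4. The day 4 arrays all lay far below the day 0 arrays, a 27.6-fold difference (log2 difference -4.79 ± 0.18 SE, limma adjusted p = 2.45e-12). Stat3 itself read 10.44, 10.37 and 10.27 on day 0 and 9.13, 8.94 and 8.75 on day 4, 2.67-fold lower (adjusted p = 2.44e-06). Bcl3, an IκB family protein, was detected on every day 0 array at 7.21, 7.23 and 6.64 and on no day 4 array, a difference of at least 3.54-fold. Icam1, an adhesion molecule, fell by 2.10 ± 0.15 on the log2 scale, with values of 10.87, 10.76 and 10.50 on day 0 and 8.60, 8.70 and 8.53 on day 4 and no overlap.

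Among the receptor genes, Il6st, the gp130 receptor subunit, read 5.86, 6.12 and 5.95 on day 0 and 5.94, 5.47 and 5.45 on day 4 and did not pass (95% interval of the difference -0.82 to 0.10; intervals here and below are not adjusted for the number of genes), and the day groups overlapped. Lifr, the LIF receptor subunit, was detected on 1 day 0 array and on no day 4 array and is not among the detected genes. Among all genes tested it was called lower (log2 difference -0.54 ± 0.19, limma adjusted p = 0.0407). That call was lost in 5 of the 15 alternative settings that gave a value. In the whole list 3 of 26 detected members were higher and 7 lower. Of the 22 detected on all 6 arrays, 3 were higher and 5 lower, with a median difference of -0.11. Pim2, a kinase of the same list, went the other way, at 6.42, 6.41 and 6.32 on day 0 and 8.24, 8.10 and 8.49 on day 4 (3.72-fold higher by its brightest probe, adjusted p = 4.12e-07). A second Pim2 probe rose less, by 0.53 on the log2 scale.

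The promoters of Socs3 and Icam1 hold the letters of a STAT element, TTCNNNGAA, upstream of the annotated start. They are shown because these genes are among the 3 largest falls of the list. The pieces are from RefSeq, build GRCm38.p6, written in the direction of the gene, with the match in capitals.
Socs3, chr11:117969492-117969540, minus strand: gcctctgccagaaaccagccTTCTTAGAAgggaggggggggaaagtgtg
Icam1, chr9:21015878-21015926, plus strand: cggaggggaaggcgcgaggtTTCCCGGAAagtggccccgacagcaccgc
The motif is its own reverse complement, and 8.3% of all 32851 promoter windows of the table (250 bases before to 50 after a start) hold it, against 5 of the 27 windows (18.5%) of the LIF and STAT3 members, which belong to 4 genes. The members were chosen as known pathway genes and targets, so a high share goes with how they were chosen. The motif was present in 6.51% of the windows of genes that fell by 2-fold or more, in 6.28% for the rises of that size and in 6.95% for genes that did not pass. A match is a description of the letters and not of a bound site.

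The means of Socs3, Stat3 and Klf4 were lower on day 4 than on the other days. Socs3 averaged 10.94 ± 0.11 on day 0 (SD, n = 3), 6.16 ± 0.15 on day 4, 10.44 ± 0.35 on day 8 and 10.89 ± 0.33 on day 15. Klf4, a naive pluripotency factor that is also expressed in epithelia, averaged 11.69 ± 0.16, 9.17 ± 0.09, 11.91 ± 0.09 and 12.03 ± 0.09 on these days. Stat3 went from 10.36 ± 0.08 to 8.94 ± 0.19 and stood at 10.38 ± 0.30 on day 8.

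Among the naive pluripotency factors, 13 of 23 detected members were lower and 1 was higher. All 23 were detected on all 6 arrays, with a median difference of -0.61. The extent differed widely between factors. Nanog, a homeobox factor of the naive state, read 12.46, 13.10 and 13.07 on day 0 and 11.76, 12.12 and 12.25 on day 4, 1.79-fold lower without overlap (adjusted p = 0.00343). Gbx2, a homeobox factor downstream of STAT3, read 12.97, 12.98 and 13.05 on day 0 and 10.65, 10.54 and 10.39 on day 4, 5.55-fold lower without overlap (adjusted p = 1.94e-10). Tbx3, a T-box factor, was 3.04-fold lower (10.30, 10.41 and 10.20 on day 0 and 8.84, 8.71 and 8.55 on day 4), and Klf5 2.94-fold lower (12.58, 12.14 and 12.31 on day 0 and 10.91, 10.66 and 10.80 on day 4). Tet2, which oxidises methylated cytosine, fell from 7.47, 7.78 and 7.51 to 6.14, 5.53 and 6.16. Esrrb, an orphan nuclear receptor, and Klf2 fell by 0.87 ± 0.15 and 0.61 ± 0.12 on the log2 scale, both without overlap. Esrrb was still at a mean of 12.09 on day 4 against 12.97 on day 0, and averaged 6.69 on day 8. Fgf4, the growth factor made by the epiblast, was the member that rose, at 6.01, 6.31 and 5.93 on day 0 and 6.97, 6.88 and 6.63 on day 4 (1.67-fold, adjusted p = 0.0013).

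The general stem cell genes were split. Of the 19 detected on all 6 arrays, 3 were higher and 5 lower, with a median difference of -0.09. Eras, a RAS-like protein of embryonic stem cells, read 11.34, 11.45 and 11.90 on day 0 and 10.27, 10.54 and 10.37 on day 4 and was 2.25-fold lower. Khdc3, a maternal-effect gene, was 2.45-fold lower (10.30, 10.06 and 9.95 on day 0 and 8.93, 8.68 and 8.83 on day 4). Dnmt3l, the partner of the de novo DNA methyltransferases, rose instead, from 12.92, 12.25 and 12.80 to 14.11, 14.10 and 14.05 (2.69-fold, adjusted p = 2.12e-06), and Gdf3, a ligand of the nodal kind, rose 1.74-fold. Tdgf1, the nodal co-receptor, read 11.24, 11.08 and 11.61 on day 0 and 11.08, 11.56 and 11.49 on day 4 with overlapping groups. Of the 5 falls of this list, 2 were called without the second day 4 array and 3 without the second day 0 array. Sall4 was among them, losing its call without either of these arrays, and its second probe did not pass.

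Most primed epiblast genes rose, with 11 of 14 detected members higher and 0 lower (limma; 1 was lower at an unadjusted p-value under 0.05, and 1 with arrays of the same replicate number treated as a block). Of the 12 detected on all 6 arrays, 9 were higher and 0 lower, with a median difference of 0.82. Fgf5, a growth factor of the primed epiblast, was detected on no day 0 array and read 10.47, 10.63 and 10.40 on day 4, at least 38.3-fold higher. Pou3f1, a POU factor of the primed epiblast, read 7.55, 7.30 and 7.62 on day 0 and 10.59, 10.73 and 10.62 on day 4, 8.93-fold higher (log2 difference 3.16 ± 0.13, adjusted p = 1.04e-11). Otx2, a homeobox factor that directs binding at primed enhancers, read 9.34, 9.60 and 9.45 on day 0 and 11.07, 11.12 and 11.41 on day 4 (3.33-fold). Dnmt3b, a de novo methyltransferase, rose 1.96-fold from an already high level (13.10, 13.29 and 13.40 on day 0 and 14.07, 14.39 and 14.22 on day 4). For these genes every day 4 array lay above every day 0 array. On day 8 Pou3f1 averaged 7.50 and Otx2 7.67.

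**Figure D3:**
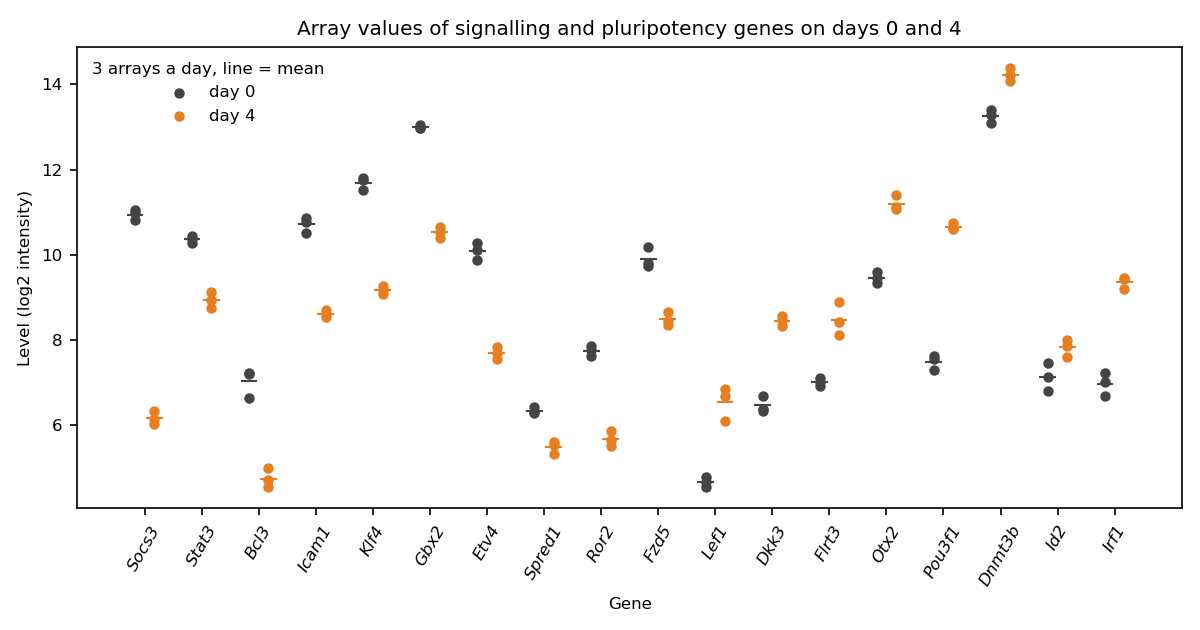
Level (log2 intensity) of 18 genes on each of the 3 day 0 arrays (dark) and 3 day 4 arrays (orange), with a line at the mean. The days do not overlap for any of these genes; Socs3 shows the widest gap, from a mean of 10.94 to 6.16.

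For FGF and ERK, 4 of 20 detected members were higher and 7 lower (4 and 6 of the 18 detected on all 6 arrays). Fgf15, a secreted FGF, read 6.58, 6.55 and 7.28 on day 0 and 10.91, 10.89 and 10.92 on day 4 and was 17.2-fold higher. Etv4, an ETS factor induced by FGF signalling, read 10.11, 10.27 and 9.86 on day 0 and 7.83, 7.55 and 7.68 on day 4 and was 5.26-fold lower (adjusted p = 1.75e-08). The feedback inhibitors Spred1 and Spry4 fell 1.81-fold and 1.71-fold, with Spry4 at 9.48, 9.18 and 8.86 on day 0 and 8.51, 8.26 and 8.43 on day 4. Dusp6, the phosphatase that acts on ERK, did not pass (interval -0.69 to -0.01). Flrt3, a membrane protein that promotes FGF signalling in Xenopus, rose 2.74-fold (7.01, 6.92 and 7.11 on day 0 and 8.11, 8.88 and 8.41 on day 4). Il17rd, a membrane inhibitor of FGF signalling, rose 1.88-fold by its brightest probe, while its second probe did not pass. Erf, an ETS repressor regulated by ERK, was detected on every day 0 array (7.27, 7.89 and 7.63) and on no day 4 array, at least 5.27-fold lower by its brightest probe, and a dimmer second probe did not pass.

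The immediate early genes, which growth factors switch on within minutes, had 2 of 17 detected members higher and 10 lower. Of the 12 detected on all 6 arrays, 6 were lower and 1 was higher, with a median difference of -0.49. Fos, a subunit of the AP-1 factor, read 9.09, 9.46 and 9.51 on day 0 and 6.04, 5.38 and 5.71 on day 4 (12.5-fold lower). Dusp1, a MAP kinase phosphatase, read 11.13, 11.23 and 11.43 on day 0 and 10.17, 10.48 and 10.27 on day 4 (1.94-fold lower, adjusted p = 2.81e-05). Egr4, a zinc finger factor, was detected on every day 0 array (8.06, 7.77 and 8.45) and on no day 4 array, at least 7.44-fold lower. Atf3 ran against the list: it was detected on no day 0 array and on every day 4 array (5.97, 5.74 and 5.46), at least 1.40-fold higher, and it belongs to the amino acid shortage genes as well.

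Nodal and activin genes had 8 of 26 detected members higher and 3 lower (7 and 3 of the 22 detected on all 6 arrays). The largest rises were those of Lefty1 and Lefty2, secreted inhibitors of nodal that nodal signalling itself switches on. Lefty1 read 8.13, 8.03 and 7.98 on day 0 and 12.21, 11.96 and 12.18 on day 4, 16.8-fold higher (log2 difference 4.07 ± 0.18, limma adjusted p = 1.7e-11). Lefty2 read 7.52, 7.46 and 7.38 on day 0 and 11.40, 11.31 and 11.49 on day 4, 15.4-fold higher. The largest fall was that of Inhbb, the inhibin and activin subunit beta B, which read 9.18, 10.01 and 9.44 on day 0 and 6.05, 5.53 and 6.05 on day 4 and was 12.7-fold lower (adjusted p = 6.15e-10). For these 3 genes the days did not overlap. Fstl1, a follistatin-like secreted protein, rose 2.49-fold (8.73, 8.78 and 8.87 on day 0 and 9.92, 10.19 and 10.22 on day 4). Pcsk6, a convertase that cleaves nodal precursors, fell 1.54-fold (10.02, 9.84 and 9.83 on day 0 and 9.36, 9.17 and 9.29 on day 4), and Ski, a repressor that binds SMAD proteins, fell 1.85-fold, although its call was lost without the second day 4 array. Nodal itself read 9.25, 9.12 and 9.30 on day 0 and 9.86, 9.49 and 9.67 on day 4, 1.36-fold higher by its brightest probe (adjusted p = 0.0266). That call was lost with median scaling, with the mean of the detected probes, and when the first or the second day 0 array, or the first or the third day 4 array, was left out, and a second Nodal probe did not pass. Smad7 was detected on too few arrays to be tested.

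In the BMP list 2 of 17 detected members were higher and 6 lower (2 and 5 of the 16 detected on all 6 arrays). Bmp4, the ligand, read 10.96, 11.08 and 10.99 on day 0 and 7.53, 7.79 and 7.80 on day 4 and was 9.89-fold lower without overlap (adjusted p = 1.04e-11). The ID genes, which encode inhibitors of basic helix-loop-helix factors, went different ways. Id1 fell by 3.17 ± 0.17 on the log2 scale. Id2 read 6.80, 7.13 and 7.47 on day 0 and 7.61, 7.85 and 8.01 on day 4 and was 1.61-fold higher (adjusted p = 0.00374). Id3 read 7.22, 7.37 and 7.40 on day 0 and 7.51, 7.45 and 7.44 on day 4 and did not pass (interval -0.15 to 0.42), although the groups did not overlap. Dusp9, a phosphatase that acts on ERK and is induced by BMP in stem cells, fell 3.03-fold (6.97, 6.79 and 7.61 on day 0 and 5.51, 5.48 and 5.57 on day 4), and Acvr1, a type I BMP receptor, rose 1.48-fold.

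The WNT list was mixed, with 11 of 27 detected members higher and 5 lower (8 and 4 of the 22 detected on all 6 arrays). Lef1, a nuclear partner of β-catenin, appeared: it was detected on no day 0 array and read 6.10, 6.69 and 6.86 on day 4, at least 2.48-fold higher. Dkk3, a secreted protein of the Dickkopf family, rose 3.96-fold (6.38, 6.32 and 6.69 on day 0 and 8.46, 8.56 and 8.32 on day 4). Wls, which carries WNT ligands to the surface, rose 2.38-fold and was detected on 2 of 3 day 0 arrays. Of the receptors, Ror2 fell 4.2-fold (7.75, 7.62 and 7.85 on day 0 and 5.52, 5.64 and 5.85 on day 4) and Fzd5 2.67-fold (10.17, 9.80 and 9.72 on day 0 and 8.66, 8.35 and 8.45 on day 4). Sp5, a direct WNT target, was detected on every day 0 array (5.78, 5.75 and 5.72) and on no day 4 array, at least 1.46-fold lower. Axin2, a feedback target of WNT, did not pass (interval -0.91 to -0.08).

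Notch genes were evenly divided, with 4 of 16 detected members higher and 4 lower (all of them detected on all 6 arrays); without the third day 0 array 2 of the falls were called. Notch4 fell 2.51-fold (9.42, 9.14 and 9.38 on day 0 and 8.07, 8.12 and 7.77 on day 4) and the target Nrarp 1.79-fold. Hes6, a HES family member that antagonises Hes1, rose 2.42-fold (10.09, 9.81 and 10.25 on day 0 and 11.32, 11.48 and 11.17 on day 4), and Notch3 1.72-fold. Notch1 did not pass (interval -0.58 to -0.01).

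The retinoic acid list leaned downward, with 2 of 14 detected members higher and 7 lower. Of the 11 detected on all 6 arrays, 5 were lower and 1 was higher, with a median difference of -0.53. Rarg, a retinoic acid receptor, read 7.03, 7.42 and 7.12 on day 0 and 6.05, 6.01 and 6.19 on day 4 and was 2.15-fold lower. Hoxb1, a target of retinoic acid, was 1.90-fold lower and was detected on 2 of 3 day 4 arrays. Stra8, a retinoic acid target needed for meiosis, was detected on every day 0 array (9.33, 9.07 and 9.33) and on no day 4 array, at least 16.5-fold lower. The rises were in metabolism. Rdh10, which makes retinaldehyde, read 7.21, 7.33 and 7.33 on day 0 and 8.76, 8.54 and 8.67 on day 4 (2.58-fold higher, adjusted p = 2.32e-07). Cyp26a1, which degrades retinoic acid, was detected on 1 day 0 array and on all day 4 arrays (6.91, 7.08 and 7.18), with a difference of 1.98 ± 0.17 and no fold given. On day 8 they averaged 11.07 and 9.64. A second, dimmer Cyp26a1 probe did not pass.

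Most genes of amino acid shortage rose. ATF4 is a transcription factor translated when amino acids are scarce or proteins misfold, and it switches on amino acid transporters, serine and asparagine synthesis, aminoacyl-tRNA synthetases and stress regulators. In this list 26 of 36 detected members were higher and 2 lower. Of the 32 detected on all 6 arrays, 22 were higher and 2 lower, with a median difference of 0.92, against -0.06 for all genes so detected. Across the alternatives between 22 (members detected on all 6 arrays alone) and 28 were called higher.

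Atf4 itself read 10.72, 10.69 and 10.99 on day 0 and 11.88, 11.87 and 11.94 on day 4, 2.14-fold higher (adjusted p = 7.81e-07). Among the stress regulators Chac1, which degrades glutathione, showed the largest rise, 11.6-fold, from 7.84, 7.80 and 7.94 to 11.63, 11.32 and 11.22 (log2 difference 3.53 ± 0.14, adjusted p = 6.21e-12). Nupr1, a small stress-induced nuclear protein, read 7.35, 6.76 and 7.22 on day 0 and 10.29, 9.89 and 9.88 on day 4 (7.52-fold). Stc2, a secreted glycoprotein, read 6.13, 5.34 and 5.83 on day 0 and 8.94, 9.08 and 8.68 on day 4 (8.77-fold). None of these overlapped between the days. Ddit3, the factor CHOP, was detected on no day 0 array and read 5.81, 6.24 and 5.54 on day 4, at least 1.54-fold higher. Trib3, a pseudokinase, rose 1.61-fold by its brightest probe, and its other 2 probes did not pass.

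Among the genes of amino acid supply, Cth, which makes cysteine from cystathionine, read 5.25, 6.39 and 5.84 on day 0 and 8.26, 8.60 and 8.98 on day 4, 6.89-fold higher, with detection on 2 of 3 day 0 arrays. The glycine transporter Slc6a9 rose 6.29-fold (6.32, 5.75 and 6.51 on day 0 and 9.15, 8.78 and 8.62 on day 4) and the neutral amino acid transporter Slc1a4 3.56-fold (8.85, 8.64 and 8.91 on day 0 and 10.72, 10.63 and 10.54 on day 4). Phgdh and Psat1, enzymes of serine synthesis, rose 3.64-fold and 2.97-fold. The tRNA synthetases rose less, with Nars 1.97-fold and Gars 1.48-fold higher, and the Gars call was lost with median scaling. Asns, asparagine synthetase, read 11.92, 11.70 and 11.83 on day 0 and 12.18, 12.07 and 12.02 on day 4: the days did not overlap, but the difference of 0.27 ± 0.11 did not pass (adjusted p = 0.0829), while a dimmer second Asns probe did. The members that fell were Ppp1r15a (-0.78 ± 0.21), which recruits a phosphatase to eIF2α, and Cbs (-0.58 ± 0.17), which makes cystathionine. The Cbs call was lost without the second day 0 or the second day 4 array, and a second Cbs probe did not pass.

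The promoters of 6 of the genes that rose hold, upstream of the start, the letters of the composite C/EBP-ATF element that ATF4 binds, TGATGNAA on either strand. They are shown because these genes rose together. Each lies on GRCm38.p6 (RefSeq) and is written in the direction of the gene, with the match in capitals.
Atf3, chr1:191183416-191183463, minus strand: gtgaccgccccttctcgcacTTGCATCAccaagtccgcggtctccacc
Chac1, chr2:119351029-119351076, plus strand: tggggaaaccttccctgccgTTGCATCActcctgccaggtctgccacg
Gars, chr6:55037951-55037998, plus strand: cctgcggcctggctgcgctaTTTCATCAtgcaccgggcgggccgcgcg
Herpud1, chr8:94386297-94386344, plus strand: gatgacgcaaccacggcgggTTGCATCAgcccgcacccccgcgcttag
Nupr1, chr7:126625553-126625600, minus strand: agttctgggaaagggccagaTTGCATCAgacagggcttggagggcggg
Vldlr, chr19:27216800-27216847, plus strand: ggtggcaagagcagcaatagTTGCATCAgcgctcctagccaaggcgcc
All 6 matches are on the strand opposite to the gene, and all but the one of Gars read TTGCATCA. The element was found in 11 of the 34 windows (32.4%) of the list's detected members, against 3.97% of all 32851 windows. The members of the list were chosen as known targets, so a high share goes with how they were chosen. It was present in 5.02% of the windows of all genes that rose by 2-fold or more, in 1.86% for the falls of that size and in 2.1% for genes that did not pass. Among the 5 list members with a window that did not pass, Aars and Asns hold it too. By windows, the share was 33.3% (9 of 27) for members called higher and 40% (2 of 5) for members that did not pass. Other elements were also searched. The sterol response element was in 1 of 28 windows of the cholesterol and fatty acid list (3.57%), against 1.24% of all windows. The FOXH1 element was in 0 of 25 windows of the nodal and activin list, against 0.855%. The CArG box of SRF was in 2 of 14 windows of the immediate early list (14.3%), against 1.63%.

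In the list of protein folding genes 3 of 20 detected members were higher and 0 lower (limma; at an unadjusted p-value under 0.05, 7 were higher and 0 lower, as under the replicate block). Herpud1, which acts in the degradation of endoplasmic reticulum proteins and is also an ATF4 target, read 5.95, 5.85 and 5.90 on day 0 and 7.62, 7.81 and 7.50 on day 4 (3.35-fold). Pdia6, a disulfide isomerase, rose 1.92-fold. Hspa5, the main chaperone of the endoplasmic reticulum, did not pass (interval 0.03 to 0.67), nor did the heat shock protein gene Hspb1 (interval -0.15 to 0.24).

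Most detected genes of cholesterol and fatty acid synthesis fell. SREBF2 is the transcription factor that switches on the sterol enzymes when membrane cholesterol is low, and INSIG proteins hold it back when cholesterol is high. In this list 21 of 29 detected members were lower and 2 higher. Of the 26 detected on all 6 arrays, 2 were higher and 18 lower, with a median difference of -0.86. Across the alternatives between 18 (members detected on all 6 arrays alone) and 24 were called lower.

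Srebf2 read 9.02, 8.30 and 8.38 on day 0 and 7.82, 7.22 and 7.07 on day 4, 2.29-fold lower (adjusted p = 0.000633). Along the sterol pathway, Hmgcs1, at its entry, read 13.54, 13.46 and 13.59 on day 0 and 12.69, 12.56 and 12.61 on day 4 (1.88-fold lower). Mvd, mevalonate diphosphate decarboxylase, read 9.23, 8.94 and 8.95 on day 0 and 7.75, 7.43 and 7.40 on day 4 (2.85-fold lower, adjusted p = 2.14e-05). Fdps, farnesyl diphosphate synthase, was 2.73-fold lower, Lss, lanosterol synthase, 2.76-fold and Dhcr7, the last reductase, 2.49-fold. For each of these genes the days did not overlap. Mvk, mevalonate kinase, was detected on 1 of 3 day 4 arrays and its day 4 mean lay under the detection floor. Its difference of -1.51 ± 0.26 is therefore given without a fold.

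The feedback gene Insig1 fell as well, from 6.30, 6.84 and 6.76 to 5.04, 4.91 and 5.66 (2.70-fold). It was detected on 1 of 3 day 4 arrays and its day 4 mean lay close to the detection floor, so this fold is uncertain. Insig2 did not pass (interval -0.38 to 0.28). Among the fatty acid enzymes, the desaturase Scd1 read 10.63, 10.46 and 10.61 on day 0 and 9.03, 8.91 and 9.07 on day 4 and had the largest fall of the list (2.96-fold, adjusted p = 2.92e-08), and the elongase Elovl6 fell 1.75-fold. Fasn, fatty acid synthase, fell by 0.30 ± 0.09 on the log2 scale, a call lost without the second day 0, the second day 4 or the third day 4 array, without the detection filter and without the variance trend. Sqle, squalene epoxidase, did not pass (interval -0.63 to 0.07). Abcg1, which exports cholesterol from cells and is switched on by LXR receptors, moved the opposite way, from 6.41, 6.45 and 6.35 to 8.84, 8.76 and 8.82 (5.28-fold higher, adjusted p = 6.97e-10). The other rise was that of Ebp, a sterol isomerase, by 0.43 ± 0.14 on the log2 scale, a call lost with median scaling and when any 1 array other than the third day 0 array was left out. On day 8 Hmgcs1 averaged 13.60 ± 0.09 (SD, n = 3) and Scd1 11.53 ± 0.16, against 13.53 ± 0.07 and 10.57 ± 0.09 on day 0.

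**Figure D4:**
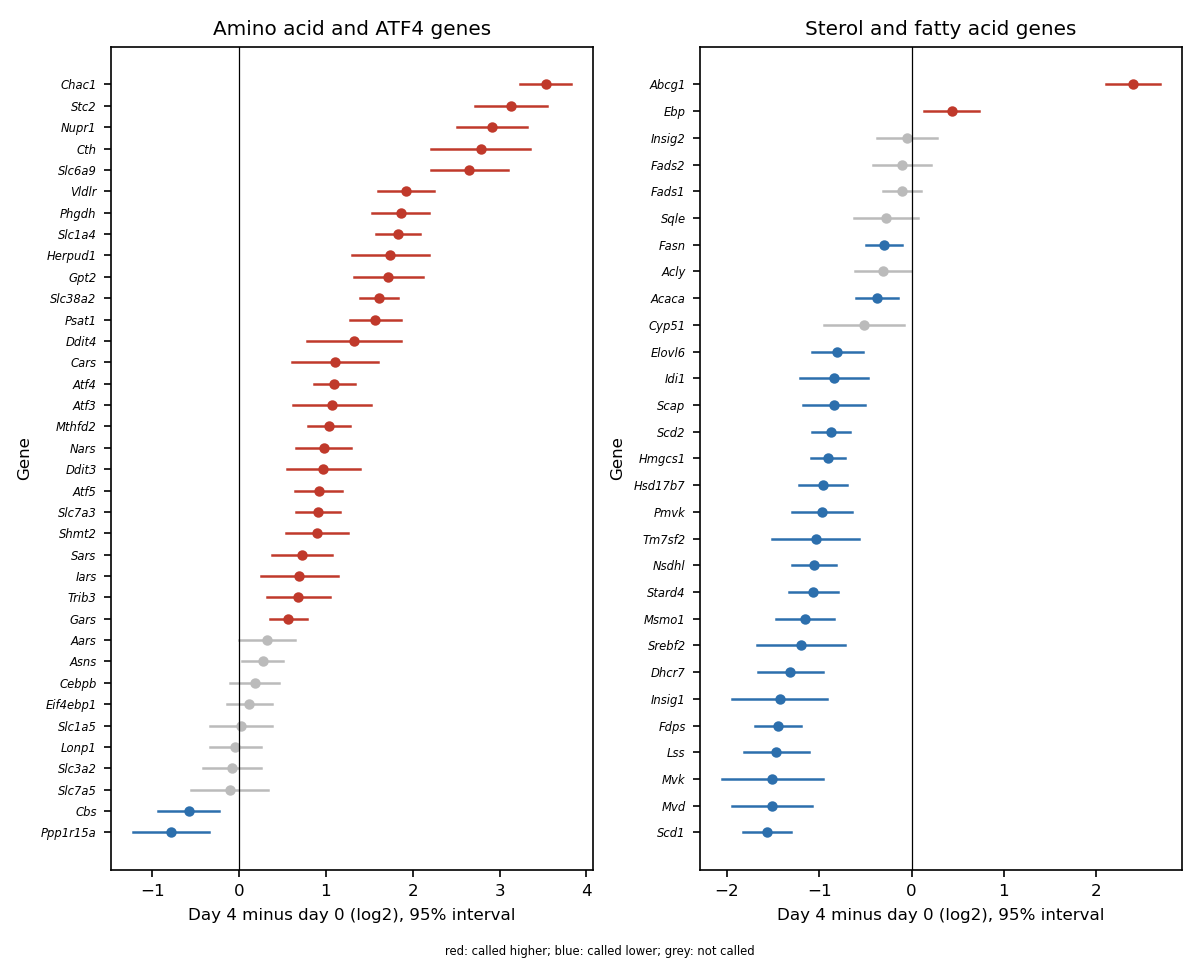
Difference between day 4 and day 0 (log2, points) with its 95% interval (lines) for each detected member of the amino acid and ATF4 list (left, 36 genes) and of the sterol and fatty acid list (right, 29 genes), coloured by call. Most intervals on the left lie above 0, up to 3.53 for Chac1, and most on the right lie below 0, down to -1.56 for Scd1, with Abcg1 at 2.40.

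Genes of sugar metabolism were more often higher than lower. In the glycolysis and hypoxia list 18 of 34 detected members were higher and 2 lower. Of the 32 detected on all 6 arrays, 18 were higher and 2 lower, with a median difference of 0.65. Ldhb, a lactate dehydrogenase subunit, read 9.25, 8.92 and 9.01 on day 0 and 11.47, 11.63 and 11.54 on day 4 (5.59-fold, adjusted p = 4.13e-09). The other subunit, Ldha, was 1.96-fold higher (12.35, 12.54 and 12.13 on day 0 and 13.31, 13.21 and 13.41 on day 4). Tpi1, triose phosphate isomerase, was 2.96-fold higher and Pfkp, a phosphofructokinase, 2.60-fold. P4ha1, which hydroxylates collagen, read 5.44, 5.32 and 5.36 on day 0 and 7.42, 7.45 and 6.93 on day 4 (3.71-fold), and Car12, a carbonic anhydrase, 5.47, 5.45 and 5.74 on day 0 and 7.27, 7.43 and 7.36 on day 4 (3.48-fold). The glucose transporter Slc2a1 did not pass (interval -0.25 to 0.31), nor did Pdk1 (interval -0.24 to 0.36), and Hk2, hexokinase, fell by 0.32 ± 0.10, a call lost without the third day 0 or the first day 4 array and without the variance trend.

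Redox genes changed in both directions, with 6 of 24 detected members higher and 6 lower (all of them detected on all 6 arrays). Gpx1, glutathione peroxidase, fell from 13.63, 13.40 and 13.31 to 11.54, 11.49 and 11.47 (3.84-fold, adjusted p = 2.09e-10). Its relative Gpx2, which no list holds, read 9.50, 9.06 and 9.36 on day 0 and 6.77, 6.60 and 6.82 on day 4 (5.96-fold lower). Txnrd1, thioredoxin reductase, fell 2.70-fold (11.54, 11.71 and 11.75 on day 0 and 10.41, 10.36 and 9.93 on day 4) and Srxn1, sulfiredoxin, 2.52-fold. The glutathione transferase Gstm2 rose from 9.07, 8.66 and 8.90 to 11.82, 11.63 and 11.51 (6.87-fold) and Gstm1 5.03-fold. These are close paralogs whose probes may share signal. The metallothionein Mt1 rose 2.38-fold (12.92, 12.48 and 12.66 on day 0 and 14.14, 13.80 and 13.89 on day 4) and Mt2, another close paralog, 2.42-fold. Nfe2l2, the factor NRF2 that drives antioxidant genes, read 6.09, 6.53 and 6.93 on day 0 and 7.30, 7.50 and 7.70 on day 4 (1.98-fold higher), while its target Nqo1 fell 1.67-fold.

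Genes of interferon response and antigen presentation were more often higher than lower, with 9 of 19 detected members higher and 3 lower. Of the 17 detected on all 6 arrays, 8 were higher and 3 lower, with a median difference of 0.30. Irf1, an interferon-inducible factor that also switches on antigen presentation genes, averaged 6.97 ± 0.27 on day 0 and 9.36 ± 0.14 on day 4 (SD, n = 3) without overlap (5.27-fold, limma adjusted p = 1.02e-08). B2m, the light chain of MHC class I, read 9.18, 9.08 and 8.97 on day 0 and 10.98, 10.77 and 10.81 on day 4 (3.43-fold). H2-K1, a class I heavy chain with close paralogs, was 3.06-fold higher (7.32, 6.77 and 7.97 on day 0 and 8.94, 9.10 and 8.87 on day 4). Psmb10, an immunoproteasome subunit, was 2.02-fold higher. Ddx58, the RNA sensor RIG-I, fell 2.33-fold (7.31, 8.20 and 7.79 on day 0 and 6.25, 6.63 and 6.75 on day 4) and Irf9, a subunit of the interferon-activated ISGF3 complex, 1.48-fold. The interferon-inducible GTPase genes Irgm1 and Gbp2b, which no list holds, were also higher. Gbp2b was detected on no day 0 array and read 8.04, 7.68 and 7.64 on day 4, at least 5.84-fold higher. Irgm1 was detected on 1 day 0 array and read 8.57, 8.38 and 8.58 on day 4, a difference of 3.38 ± 0.22. Irf1 averaged 6.52 ± 0.13 on day 8, while B2m stood at 12.16 ± 0.17.

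Most detected endoderm genes rose. The visceral and parietal endoderm list had 18 of 30 detected members higher and 1 lower. Of the 24 detected on all 6 arrays, 14 were higher and 0 lower, with a median difference of 0.53 (at an unadjusted p-value under 0.05, 19 of all 30 were higher and 2 lower). Ttr, transthyretin, was detected on no day 0 array and read 10.22, 10.05 and 9.94 on day 4, at least 28.5-fold higher. Hnf4a, a nuclear receptor of visceral endoderm and liver, read 6.71, 5.87 and 6.29 on day 0 and 8.65, 8.67 and 8.13 on day 4 (4.58-fold, adjusted p = 2.3e-07). Pdzk1, a scaffold of transporters, read 5.88, 5.69 and 6.22 on day 0 and 8.71, 8.78 and 8.63 on day 4 (6.86-fold). Mttp, which loads lipid onto apolipoprotein B, was detected on no day 0 array and read 6.87, 7.22 and 7.27, at least 3.68-fold higher. Tmprss2, a membrane serine protease, was at least 5.20-fold higher, from no detection to 7.87, 7.36 and 7.63. Dab2 and Amn, proteins of the endocytic uptake system of visceral endoderm, rose 2.59-fold and 2.89-fold.

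Several defining markers did not pass or were not detected. Gata6, a GATA factor that specifies extraembryonic endoderm, read 9.97, 10.12 and 10.30 on day 0 and 9.99, 10.33 and 9.97 on day 4 and overlapped (interval -0.31 to 0.25). The laminin gene Lama1 (interval -0.28 to 0.46) did not pass. Afp, α-fetoprotein, had no detected value on the 6 arrays. Trf, transferrin, fell 2.23-fold and was detected on 2 of 3 day 4 arrays. Among definitive endoderm genes 11 of 16 detected members were higher and 2 lower. The rises include genes of other lists: Tmprss2 of the visceral and parietal endoderm list, Otx2 of the primed epiblast list and Flrt3 of the FGF and ERK list. Of the 11 definitive endoderm members detected on all 6 arrays, 7 were higher and 1 was lower, with a median difference of 0.76. Sox17, its defining SOX factor, read 7.86, 8.09 and 8.53 on day 0 and 8.83, 9.02 and 8.93 on day 4 (1.70-fold, adjusted p = 0.00134). Foxa2 was detected on no day 0 array and read 5.73, 5.23 and 5.24 on day 4, at least 1.12-fold higher, and its call was lost without the first day 4 array and with an offset of 50. Cxcr4, a surface marker used to sort definitive endoderm, did not pass (interval -0.25 to 0.59), Cer1 was detected on too few arrays to be tested, and Kit fell 2.08-fold (9.20, 9.74 and 9.24 on day 0 and 8.21, 8.27 and 8.54 on day 4). Eomes, the T-box factor that acts upstream of endoderm formation, rose 2.64-fold (7.99, 8.47 and 8.52 on day 0 and 9.50, 9.80 and 9.87 on day 4). On day 8 Sox17 averaged 12.34 and Foxa2 7.88.

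In the list of stomach lining genes 6 of 11 detected members were higher and 0 lower (limma; 6 and 0 also at an unadjusted p-value under 0.05). Of the 8 detected on all 6 arrays, 3 were higher and 0 lower, with a median difference of 0.07. Gkn1, a gastrokine secreted by the stomach lining, read 5.93, 5.55 and 6.15 on day 0 and 10.94, 11.01 and 10.70 on day 4 (32.1-fold, adjusted p = 5.65e-14). Clic6, of the chloride intracellular channel family, read 6.61, 6.51 and 6.65 on day 0 and 11.12, 10.97 and 10.87 on day 4 (21.1-fold), and Pga5, a pepsinogen, 8.18, 8.17 and 8.32 on day 0 and 12.55, 12.49 and 12.71 on day 4 (20.5-fold). None of the 3 overlapped between the days. The other 3 rises, Gkn2, Muc13 and Tff1, were detected on no day 0 array, and were at least 28.6-fold, 10.4-fold and 2.76-fold higher on day 4. A second Muc13 probe rose less, by 1.01 on the log2 scale.

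Markers of other cell types moved with these groups, and their part in the results was not tested. Fibroblast and feeder cell genes had 14 of 25 detected members higher and 1 lower. Of the 21 detected on all 6 arrays, 13 were higher and 1 lower, with a median difference of 0.72. The intensities of the 25 members summed to between 11683 and 13384 on the day 0 arrays and between 17707 and 19787 on the day 4 arrays. Without Acta2, smooth muscle actin, the other 24 summed to between 10161 and 11721 and between 13039 and 14579. Dcn, decorin, read 6.88, 6.48 and 6.96 on day 0 and 9.57, 9.80 and 9.81 on day 4 (7.75-fold), Mmp2, a matrix protease, 7.21, 7.13 and 7.03 on day 0 and 9.32, 9.24 and 9.34 on day 4 (4.51-fold), and Serpinf1, a secreted serpin, 8.34, 8.07 and 8.50 on day 0 and 10.49, 10.79 and 10.40 on day 4 (4.78-fold). Thy1, another marker of the list, was also higher, at 7.84, 7.50 and 7.45 on day 0 and 8.19, 8.19 and 8.30 on day 4. Its difference was 0.63 ± 0.19 (limma adjusted p = 0.0192), a call lost in 3 of the 17 alternatives. The collagen genes Col1a1 and Col1a2 stayed near the floor, and neither passed the test. Col1a1 was detected on 1 day 0 array and read 5.62, 5.34 and 6.15 on day 4. Col1a2 was detected on no day 0 array and read 5.53, 5.24 and 5.64 on day 4. Col1a2 was called higher with the replicate block and with the 6 arrays of days 0 and 4 alone. Lum, Postn, Fap, Tagln and Pdgfrb were not among the detected genes. Vim, vimentin, fell by 0.43 ± 0.15 with overlapping groups, a call lost in 7 of the alternatives, among them without the second or the third day 0 array or the first or the second day 4 array.

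Of the endothelial and blood genes, 4 of 13 detected members were higher and 3 lower (2 and 2 of the 9 detected on all 6 arrays), and their summed intensity went from between 6442 and 6866 on day 0 to between 2558 and 2711 on day 4. That fall lay almost wholly in Laptm5, a lysosomal membrane protein, which read 12.33, 12.40 and 12.44 on day 0 and 10.57, 10.56 and 10.55 on day 4 (3.56-fold lower): the other 12 summed to between 1122 and 1314 on day 0 and between 1058 and 1197 on day 4. Flt1, a VEGF receptor, was detected on 1 day 0 array and read 7.01, 7.37 and 6.90 on day 4, and Tek, an angiopoietin receptor, was at least 2.77-fold higher from no detection on day 0, while Kdr, Cdh5 and Gata1 were not among the detected genes. Neural genes had 3 of 9 detected members higher and 3 lower (2 and 3 of the 7 detected on all 6 arrays), summing to between 2061 and 2236 on day 0 and between 1408 and 1414 on day 4, and Pax6, Sox1 and Nes were not among the detected genes. Among all genes tested Nes was called lower, a call lost without the third day 4 array. The neuronal stathmin Stmn2 fell 3.26-fold (10.13, 10.21 and 10.33 on day 0 and 8.50, 8.53 and 8.53 on day 4) and Sox11 rose 2.03-fold. Without Stmn2 the neural sum was higher on day 4, between 1042 and 1045, than on day 0, between 928 and 951. Trophoblast genes had 4 of 9 detected members higher and 2 lower (4 and 2 of the 8 detected on all 6 arrays), with Tfap2c, a factor of trophoblast and germ cells, 3.92-fold lower by its brightest probe (1 of its 2 other probes passed), Cdx2 not passing (interval -0.77 to 0.00) and Elf5 and Plac1 not among the detected genes. The trophoblast members summed to between 2909 and 3035 on day 0 and between 3220 and 3277 on day 4. Without Tfap2c the other 8 summed to between 1886 and 1970 on day 0 and between 2910 and 3027 on day 4. Of the muscle genes, 1 of 7 detected members was higher and 1 lower, and they summed to between 511 and 641 on day 0 and between 601 and 742 on day 4, and Myh6 and Tnnt2 were not among the detected genes. Acta1, skeletal actin, was the muscle gene that rose (3.91-fold, 6.42, 5.67 and 6.43 on day 0 and 8.35, 7.99 and 8.09 on day 4). Without Acta1 the muscle sum was lower on day 4: the other 6 summed to between 460 and 556 on day 0 and between 329 and 417 on day 4.

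Germ cell genes were lower more often than higher, with 4 of 23 detected members higher and 10 lower (4 and 7 of the 19 detected on all 6 arrays), and summed to between 12207 and 12701 on day 0 and between 10490 and 11461 on day 4. Without Tex19.1, the member whose intensity changed most, the sums overlapped, between 8954 and 9084 and between 8360 and 9034. Smc1b, a meiotic cohesin, read 8.14, 8.03 and 7.92 on day 0 and 7.16, 6.60 and 6.86 on day 4 (2.23-fold lower) and Tex14, of germ cell bridges, 8.76, 9.28 and 8.66 on day 0 and 7.72, 7.82 and 7.62 on day 4 (2.27-fold lower). Dazl, an RNA-binding protein of germ cells, did not pass (interval -0.82 to 0.00). Tdrd12, a partner in piRNA production, rose instead, 3.52-fold (7.50, 6.92 and 7.44 on day 0 and 9.14, 9.14 and 9.02 on day 4), and averaged 5.72 on day 8. Among imprinted and IGF genes 8 of 16 detected members were higher and 1 lower (7 and 1 of the 14 detected on all 6 arrays). The paternally expressed Snrpn read 11.80, 11.70 and 11.96 on day 0 and 13.03, 12.98 and 13.16 on day 4 (2.35-fold, adjusted p = 1.55e-07) and Mkrn3 rose 2.25-fold. Phlda2, a maternally expressed growth restrictor, fell 3.26-fold (10.06, 9.61 and 9.76 on day 0 and 8.09, 8.16 and 8.06 on day 4). Igf2 read 11.29, 11.34 and 11.24 on day 0 and 11.27, 11.11 and 11.12 on day 4 and did not pass (interval -0.32 to 0.07).

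In the junction list 16 of 33 detected members were higher and 6 lower (14 and 6 of the 31 detected on all 6 arrays); 3 of the 6 falls were called without the third day 0 array or without the second day 4 array. Cldn7, a claudin, was detected on no day 0 array and read 7.37, 6.99 and 7.03 on day 4, at least 3.70-fold higher. Grhl2, a grainyhead factor of epithelia, read 7.01, 7.71 and 7.41 on day 0 and 9.23, 9.30 and 9.52 on day 4 (3.94-fold), and Krt18, a simple epithelial keratin, 6.78, 6.44 and 6.70 on day 0 and 9.06, 8.97 and 8.47 on day 4 (4.56-fold). Itga3, a laminin receptor, fell 2.57-fold (9.39, 10.03 and 9.75 on day 0 and 8.53, 8.11 and 8.44 on day 4). Cdh1, E-cadherin, fell by 0.39 ± 0.12 without overlap, a call lost without the third day 0 array or the second or the third day 4 array, and Cdh2, N-cadherin, did not pass (interval -0.19 to 0.52).

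Few genes of growth and division passed. Of 51 oxidative phosphorylation genes, 0 were called higher and 2 lower by limma, and 4 and 2 at an unadjusted p-value under 0.05; without the first day 0 array 0 were lower, and with the replicate block 4 were higher. Of 49 cytosolic ribosomal protein genes 0 were higher and 4 lower by limma, and 4 and 5 at an unadjusted p-value under 0.05, with 5 higher under the replicate block. The ribosomal falls included Rps15a, which read 7.09, 6.37 and 7.01 on day 0 and 5.57, 5.31 and 5.55 on day 4 (2.54-fold), and Rpl39l, a copy of Rpl39 of testis and stem cells, which read 10.21, 9.90 and 10.55 on day 0 and 9.12, 8.95 and 8.75 on day 4 (2.43-fold); ribosomal protein genes have many near-identical copies, so their probes are uncertain, and 2 of the 4 falls were called without the third day 4 array. In the G2 and mitosis list 0 of 23 detected members were higher and 2 lower (limma; 0 and 6 at an unadjusted p-value under 0.05, and 0 lower without the second day 4 array), and in the G1 and S phase list 4 of 35 detected members were higher and 3 lower (4 and 8 at an unadjusted p-value under 0.05, and 9 lower with the replicate block). E2f2, a factor that drives S phase genes, read 9.65, 9.22 and 9.33 on day 0 and 7.32, 7.07 and 6.91 on day 4 (4.92-fold lower, adjusted p = 2.79e-08). Ccnd1 did not pass (interval -0.37 to 0.45), Ccnd2 rose 1.81-fold and Ccnd3 fell 1.73-fold. The kinase inhibitor Cdkn1a, a p53 target, read 8.89, 8.85 and 8.86 on day 0 and 10.27, 10.25 and 10.37 on day 4 (2.69-fold higher, adjusted p = 2.8e-08). In the MYC and ribosome assembly list 1 of 19 detected members was higher and 2 lower (6 lower with the replicate block). Myc and Mycn were not among the detected genes. The member that rose was Mycl, a MYC relative, 4.39-fold higher (7.31, 6.83 and 6.98 on day 0 and 9.40, 9.17 and 8.95 on day 4).

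Among Polycomb genes 2 of 24 detected members were higher and 6 lower (2 and 5 of the 23 detected on all 6 arrays), and 3 of the 6 falls were called without the third day 0, the first day 4 or the second day 4 array. Eed, a core subunit of Polycomb complex 2, read 12.68, 12.78 and 12.84 on day 0 and 11.94, 12.11 and 12.08 on day 4 (1.65-fold lower, adjusted p = 1.94e-05), and its call was kept under every alternative. Among remodelling complexes 7 of 29 detected members were lower and 1 was higher (6 and 1 of the 28 detected on all 6 arrays), and 3 of the 7 falls were called without the second day 4 array and 4 without the first or the second day 0 array. Smarcd3, a BAF subunit, was detected on 1 of 3 day 4 arrays, with a difference of -1.37 ± 0.22. Smarca4, the BAF ATPase, did not pass (interval -0.56 to 0.15).

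Of p53 targets, 8 of 23 detected members were higher and 2 lower, and 5 were called higher without the third day 0 or the second day 4 array. Of primitive streak and early mesoderm genes, 4 of 10 detected members were higher and 2 lower; the 4 rises became 2 without the first day 0 or the first day 4 array and 1 without the second day 4 array, and Mixl1, Mesp1 and Kdr were not among the detected genes. Of the 7 streak genes detected on all 6 arrays, 3 were higher. DNA methylation genes had 4 of 17 detected members higher and 3 lower (4 and 3 of the 16 detected on all 6 arrays), and the BCL2 family and death genes 2 of 18 detected members higher and 2 lower (2 and 2 of the 15 detected on all 6 arrays).

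For genes that did not pass, the width of the interval sets what the arrays could show. The median standard error was 0.161 on the log2 scale. Of the 5818 genes that did not pass, 5715 had a whole 95% interval within 1 of 0, 2593 within 0.5 and 46 within 0.25, and for the other 103 it reached 1 or more. The narrowest intervals within 0.25 of 0 belonged to abundant genes: Rpl13 (-0.18 to 0.16), Rps20 (-0.24 to 0.10), Cox4i1 (-0.19 to 0.15), Atp5b (-0.21 to 0.14), Rps28 (-0.14 to 0.22) and Ctnna1 (-0.22 to 0.13).

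Outside all lists, the largest rises included secreted, surface and iron-handling genes. Ctsh, a lysosomal cysteine protease, read 6.88, 5.91 and 6.50 on day 0 and 10.24, 10.09 and 10.07 on day 4 (13.1-fold, adjusted p = 3.64e-09). Has2, which makes hyaluronan, read 5.52, 5.37 and 5.86 on day 0 and 9.04, 9.34 and 9.13 on day 4 (12-fold). Slc40a1, the iron exporter ferroportin, read 7.46, 7.55 and 7.81 on day 0 and 10.83, 11.37 and 11.12 on day 4 (11.3-fold). S100a1, a calcium-binding protein, rose 10.7-fold. Fxyd6, a regulator of the sodium pump, rose 7.94-fold from a level already well above the floor (10.19, 10.04 and 10.28 on day 0 and 13.09, 13.27 and 13.12 on day 4).

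Aire, the regulator of tissue antigens in the thymus, read 5.59, 5.17 and 5.81 on day 0 and 8.82, 9.01 and 9.13 on day 4 (11.1-fold, detected on 2 of 3 day 0 arrays). Kcnc4, a potassium channel subunit, was detected on no day 0 array and read 8.26, 7.88 and 7.72 on day 4, at least 6.55-fold higher. Bcl11a, a zinc finger factor of blood and brain, was at least 6.88-fold higher (7.99, 8.08 and 8.00 on day 4), Itga11, a collagen receptor subunit, at least 4.84-fold and the tetraspanin Tspan8 at least 6.50-fold. Tfec, a factor of the MITF family, read 6.08, 6.02 and 6.35 on day 0 and 9.07, 9.52 and 9.62 on day 4 (9.53-fold). Timd2, a receptor for ferritin, was at least 14.2-fold higher, from no detection on day 0. Lgals2, a galectin, was detected on 1 day 0 array and read 8.51, 8.66 and 7.99 on day 4.

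Several of these had their highest mean on day 4. Aire averaged 5.52 ± 0.33 on day 0 (SD, n = 3), 8.99 ± 0.16 on day 4, 4.89 ± 0.25 on day 8 and 5.56 ± 0.36 on day 15. Kcnc4 averaged 7.95 ± 0.28 on day 4 and 4.59 ± 0.05 on day 8. Has2 averaged 9.17 ± 0.16 on day 4, 7.43 ± 0.26 on day 8 and 5.98 ± 0.21 on day 15. Ctsh averaged 12.57 ± 0.26 on day 8. Chac1 averaged 9.08 ± 0.19 on day 8 and 11.80 ± 0.17 on day 15, and Nupr1 7.14 ± 0.25 and 11.74 ± 0.31.

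**Figure D5:**
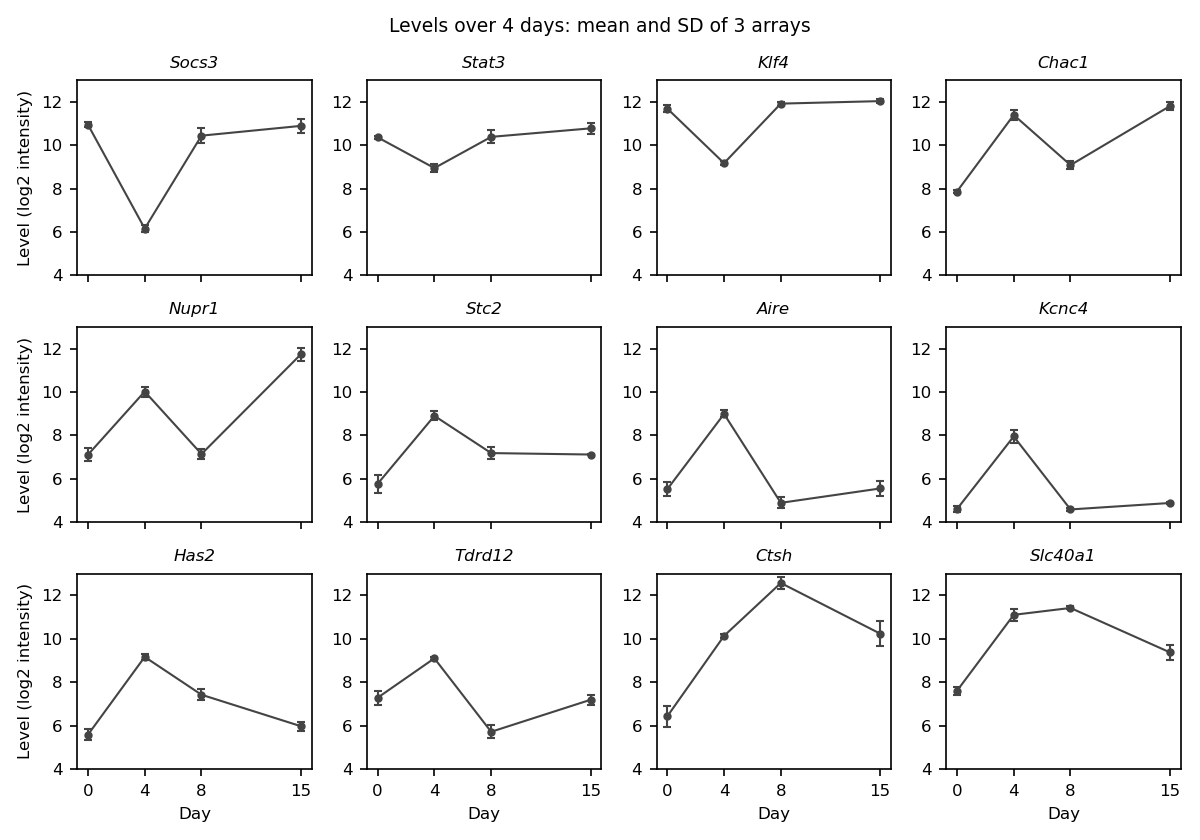
Mean level (log2 intensity) with the SD of 3 arrays on days 0, 4, 8 and 15 for 12 genes. Socs3, Stat3 and Klf4 dip on day 4, Aire, Kcnc4, Has2, Stc2 and Tdrd12 peak on day 4, Chac1 and Nupr1 are high on days 4 and 15, and Ctsh and Slc40a1 have their highest mean on day 8.

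The largest falls outside the lists included genes of signalling, adhesion and metabolism. Mras, a RAS-related GTPase, read 8.17, 8.42 and 8.32 on day 0 and 5.63, 5.43 and 5.84 on day 4 (6.37-fold lower, adjusted p = 1.52e-08). Ceacam1, an adhesion molecule, read 9.36, 9.72 and 9.45 on day 0 and 6.38, 6.33 and 6.38 on day 4 (8.84-fold lower by its brightest probe). A dimmer second Ceacam1 probe, detected on no day 4 array, had a log2 difference of -0.78. Slc52a3, a riboflavin transporter, read 9.57, 9.26 and 9.50 on day 0 and 6.92, 7.06 and 6.52 on day 4 (6.12-fold). Itpk1, an inositol phosphate kinase, read 13.49, 13.45 and 13.37 on day 0 and 11.34, 11.10 and 10.90 on day 4 (5.01-fold). Tgm1, a transglutaminase, fell 4.90-fold and the adhesion molecule gene Nectin1 4.18-fold. Jak3, a kinase of cytokine receptors, was detected on every day 0 array (7.12, 6.98 and 6.35) and on no day 4 array, at least 3.07-fold lower. Rapgef3, an exchange factor activated by cyclic AMP, was at least 4.13-fold lower and Cyp4f14, a cytochrome P450, at least 3.06-fold. Polr3gl, a subunit of RNA polymerase III, fell 3.98-fold (7.59, 7.95 and 7.64 on day 0 and 5.69, 5.73 and 5.77 on day 4). Necab2, a calcium-binding protein, was detected on 1 of 3 day 4 arrays, with a difference of -2.01 ± 0.22.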

How the data were processed

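The authors' deposited scanner table gives an intensity and a detection p-value for each of 24613 probes on each array, with no normalization, per the file headers. The deposited value table holds log2 intensities that keep each array's order (rank correlation 1); the sources used here do not give their normalization. Per the labels' protocols, RNA was extracted with Trizol and amplified with the TotalPrep kit.

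Intensities were corrected and quantile-normalized with neqc (limma 3.58.1, R 4.3.3; offset 16), which took the negative controls from the detection p-values. Probes detected (p under 0.05) on at least 3 of 12 arrays were kept, 13421, and the brightest probe stood for its gene. The accompanying annotation names 1 gene for 20984 probes, several for 1 and none for 3628; 15955 genes were found in the RefSeq table. A linear model with 4 day means (8 residual degrees of freedom, moderated variances following the mean) was fitted to all 12 arrays, with Benjamini-Hochberg adjustment over 9657 genes and a threshold of 0.05. Where no array of the dimmer day detected the probe, the fold is a bound against the lowest detected signal of each array; where the dimmer mean lay under that floor with some arrays detected, none is given. The number of arrays limits the precision.

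The genes and lists were chosen with earlier results of these data known. Named genes were the key genes of each list, up to 3 of its largest rises and falls, the 15 largest rises and falls outside the lists without overlap between the days (clone and locus names left out), and the 6 narrowest intervals within 0.25 of 0; further list members were named for their role after their values were seen. The text does not describe every gene so chosen, in the lists or outside them. Promoter windows, RefSeq GRCm38.p6, were found for 6806 of the 8339 genes. The fit was also run on simulated data with independent noise and added differences. That run checks the code and cannot test the calls made in these data.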

Additional observations from a re-analysis of the deposited data

How the results depend on the processing

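Across 17 alternative settings, the number of detected genes that passed ran from 2006, without the second day 4 array, to 3371, with the replicate number as a block, against 2521. Changes of 2-fold or more depended on the background correction: with an offset of 50 there were 308 higher and 135 lower, with quantile normalization alone 290 and 130, and from the values the authors deposited 272 and 124, against 463 and 218. A larger offset, or no background correction, shrinks differences by construction; for the deposited values the cause was not tested. With median scaling 42.9% of the calls were higher, against 53.6%. The difference in detected probes, 195.3, was between -61.5 (without the third day 4 array) and 450.5 when single arrays were left out, and 358.3 at a detection p-value under 0.01. Leaving out single arrays gave 2006 to 2260 calls in all, 1133 to 1263 higher and 873 to 1024 lower, and at 2-fold 461 to 484 higher and 220 to 241 lower.

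Same-numbered arrays of days 0 and 4 deviated together by 0.467, -0.06 and 0.134 (correlation of deviations from the day means). Pairs with different numbers lay between -0.378 and 0.284. What arrays of the same number share was not tested. The fit with the replicate block called 3371 genes, including all 2521. Not every array correlated best with its own number. Of 824 list members, 361 passed, and 262 of these passed under every setting that gave a value. Of those 361, only Acvr1b and Spred2 had their sign turned in any setting. A block for the BeadChip was not run, because neither the headers nor the labels name one.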

Other observations

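Probes with no gene name were tested as well. Of 1316 such probes detected on all 3 arrays of either day, 372 (28.3%) passed the same test, fitted across probes, 196 higher and 176 lower on day 4, and 68 and 29 of them by 2-fold or more. The largest rise was that of ILMN_2772998, which was detected on no day 0 array and averaged 7.50 on day 4 (log2 intensity, limma adjusted p = 1.59e-08).

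For 1383 genes at least 2 probes were detected on all arrays of either day. In 190 of them all probes passed in 1 direction, in 312 only some passed and in 879 none did. For 2 genes, Tardbp and Fastkd1, probes passed in opposite directions. The 2 Tardbp probes, of an RNA-binding protein, went from 8.66 to 8.24 (difference -0.43 ± 0.15 SE, limma adjusted p = 0.0415) and from 7.67 to 8.41 (0.74 ± 0.14, adjusted p = 0.000976), and they are annotated to different transcripts. The 2 Fastkd1 probes, of a mitochondrial RNA-binding protein, went from 9.51 to 8.89 (-0.62 ± 0.15, adjusted p = 0.00591) and from 5.01, detected on 1 of 3 arrays, to 5.77 (0.76 ± 0.21, adjusted p = 0.0115).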
